A study of Mus musculus with 20 samples.

Results

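*Mrc1*, *Cd163*, *Lyve1*, *Folr2*, *Cbr2*, *Pf4*, *F13a1* and *Cd5l* are genes used as markers of the macrophages that live at the borders and around the vessels of the central nervous system. They were taken by symbol from the count table of a single-cell RNA-seq study of spinal cord injury (SCI), in which all 8 were present among 16003 genes. The libraries came from female C57BL/6J mice of 8 to 10 weeks with a T9 laminectomy alone (sham) or with a 75 kdyne T9 contusion. The diet was vehicle chow or chow carrying 1200 ppm PLX5622, a blocker of the receptor CSF1R, from 2 weeks before surgery until tissue was taken. Injured cords were taken at 7 or 28 days post injury (dpi), while each sham library is labelled with 7 and 28 days and no single day. Each of the 6 libraries pooled 3 to 4 mice and came from 1 cm of unperfused cord around the injury, with blood and meninges still present. The drug reaches CSF1R in any cell that carries it, border macrophages and monocytes included.

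Border macrophages sit in the meninges, the perivascular spaces and the choroid plexus. They derive largely from embryonic precursors, renew slowly in place, clear blood-borne and interstitial material, and depend on CSF1R signalling to differing degrees. After injury, monocytes from blood enter the cord and become monocyte-derived macrophages (MDMs), which can take up some of the same genes. The members have different tasks. *Mrc1* encodes the mannose receptor CD206, *Cd163* the scavenger receptor for haemoglobin bound to haptoglobin, *Lyve1* a hyaluronan receptor that lymphatic endothelium also uses, and *Folr2* folate receptor beta. *Cbr2* encodes a carbonyl reductase. *Pf4* encodes the chemokine CXCL4, *F13a1* the A subunit of coagulation factor XIII, and *Cd5l* a secreted scavenger protein that binds lipids and other ligands. Platelets carry *Pf4* and *F13a1* RNA too, and monocytes carry *F13a1*.

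The genes lie on different chromosomes, apart from *Lyve1* and *Folr2*. In GRCm38.p6 RefSeq annotation *Mrc1* spans chr2:14229414-14332023, *Cd163* chr6:124304636-124330529, *Lyve1* chr7:110850607-110862953 and *Folr2* chr7:101839988-101857190. *Cbr2* spans chr11:120729485-120732025, *Pf4* chr5:90772435-90773383, *F13a1* chr13:36867178-37050244 and *Cd5l* chr3:87357881-87371074. The count files hold no coordinates. RefSeq promoters were matched for 7 of the 8 genes, with 9 promoters in all, and for *Lyve1* the name alone is given. The 250 bases before an annotated start are shown for 5 of these genes, *Mrc1* and *Cd163* because their UMIs lay mostly in a single cluster in vehicle-fed mice, and *Folr2*, *Pf4* and *Cd5l* because theirs were higher at 7 dpi in both MDMs and microglia. Capitals mark the letters GGAAGT, the core bound by ETS factors such as the macrophage factor PU.1, or ACTTCC on the other strand.
Mrc1, chr2:14229164-14229413 (+ strand): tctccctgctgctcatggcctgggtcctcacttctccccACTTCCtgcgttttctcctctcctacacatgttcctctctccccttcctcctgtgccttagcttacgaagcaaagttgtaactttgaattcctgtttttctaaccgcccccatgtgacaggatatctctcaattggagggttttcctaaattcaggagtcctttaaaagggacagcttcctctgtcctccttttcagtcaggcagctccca
Cd163, chr6:124304401-124304650 (+ strand): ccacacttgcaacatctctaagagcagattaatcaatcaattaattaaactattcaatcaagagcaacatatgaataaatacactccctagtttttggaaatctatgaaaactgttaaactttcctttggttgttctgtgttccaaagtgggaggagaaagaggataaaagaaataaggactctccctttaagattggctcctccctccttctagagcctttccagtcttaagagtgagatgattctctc
Folr2, chr7:101857191-101857440 (- strand): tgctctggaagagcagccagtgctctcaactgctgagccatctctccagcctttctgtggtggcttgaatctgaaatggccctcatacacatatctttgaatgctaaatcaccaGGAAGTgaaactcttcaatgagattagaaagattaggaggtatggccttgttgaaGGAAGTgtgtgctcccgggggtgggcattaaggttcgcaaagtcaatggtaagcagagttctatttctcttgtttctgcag
Pf4, chr5:90772185-90772434 (+ strand): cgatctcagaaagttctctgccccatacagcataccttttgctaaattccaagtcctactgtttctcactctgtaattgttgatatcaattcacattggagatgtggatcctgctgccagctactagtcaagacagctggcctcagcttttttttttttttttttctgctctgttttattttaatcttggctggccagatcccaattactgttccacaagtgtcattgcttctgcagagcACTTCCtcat
Cd5l, chr3:87357631-87357880 (+ strand): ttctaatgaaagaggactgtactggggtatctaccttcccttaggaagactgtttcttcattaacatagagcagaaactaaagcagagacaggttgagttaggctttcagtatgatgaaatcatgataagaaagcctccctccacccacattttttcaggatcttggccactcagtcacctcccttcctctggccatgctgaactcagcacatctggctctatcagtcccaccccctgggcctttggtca

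GGAAGT was found on either strand in 4 of the 9 member promoters (*Mrc1*, the *Folr2* promoter shown, *Pf4* and 1 of the *F13a1* promoters) and in 19.7% of 32851 promoters of this length. The *Cd163* and *Cd5l* windows shown hold no match. TGCTGA, a core bound by MAF factors, was found on either strand in 3 of the 9 member promoters and in 16.1% of all. Both words can share no more than an end base, matches of each were counted alone, and a match is a description of the letters.

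The count table held 21016 cells in 14 clusters and 81305944 UMIs (unique molecular identifiers, each standing for a captured transcript). The vehicle libraries of sham, 7 dpi and 28 dpi held 1795, 7439 and 9846 cells, and those under PLX5622 held 492, 504 and 940. Total UMIs per library ranged from 2606149 to 35694246, and between 0 and 21 barcodes were shared by any pair of libraries. With 1 library per condition there is no replicate check and no test. Each level is given as UMIs of the gene per 1000000 UMIs of the same cells (CPM), with an exact Poisson 95% interval where one is printed. A log2 ratio between libraries has an exact conditional binomial 95% interval. Both cover counting error only and not the spread between mice. A library at 0 was set to a floor of 3 UMIs to give a lower bound of the fold.

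Clusters were named from markers. Microglia (cluster 0) and MDMs (cluster 1) held the highest level of 5 of 6 and 4 of 5 of their markers. Cluster 3 was highest for 4 of 5 dendritic cell markers, for the monocyte markers *Ccr2* and *Plac8* and for 3 of 6 platelet markers, and it is therefore called cluster 3 below. It held 75, 602 and 284 cells in the sham, 7 dpi and 28 dpi vehicle libraries, and 14, 29 and 63 under PLX5622. MDMs numbered 185, 3023 and 3313 under vehicle, and 9, 100 and 161 under PLX5622. Clusters with under 20 cells in a library, which include cluster 3 and MDMs of PLX5622-fed sham mice, are given as UMIs with no comparison.

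Cluster 3 and MDMs together held most UMIs of every member, and the members divided by which of these clusters held more. *Mrc1*, *Cd163*, *Lyve1* and *Cbr2* were in cluster 3 for the most part, with 62.7% of 914, 88.8% of 179, 79.7% of 528 and 55.5% of 290 UMIs. *Folr2*, *Pf4*, *F13a1* and *Cd5l* were in MDMs for the most part, with 54.1% of 3324, 54.0% of 11010, 65.8% of 6181 and 78.0% of 4465 UMIs. In CPM the order was another, because cluster 3 held far fewer cells: the highest level of any cluster with enough cells was in cluster 3 for *Mrc1*, *Cd163*, *Lyve1*, *Cbr2*, *Folr2*, *Pf4* and *F13a1*. Microglia held 21.7% of *Folr2* and 8.07% of *Pf4* UMIs and under 5% of *Mrc1* (4.92%) and *Cbr2* (4.83%).

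**Figure D1:**
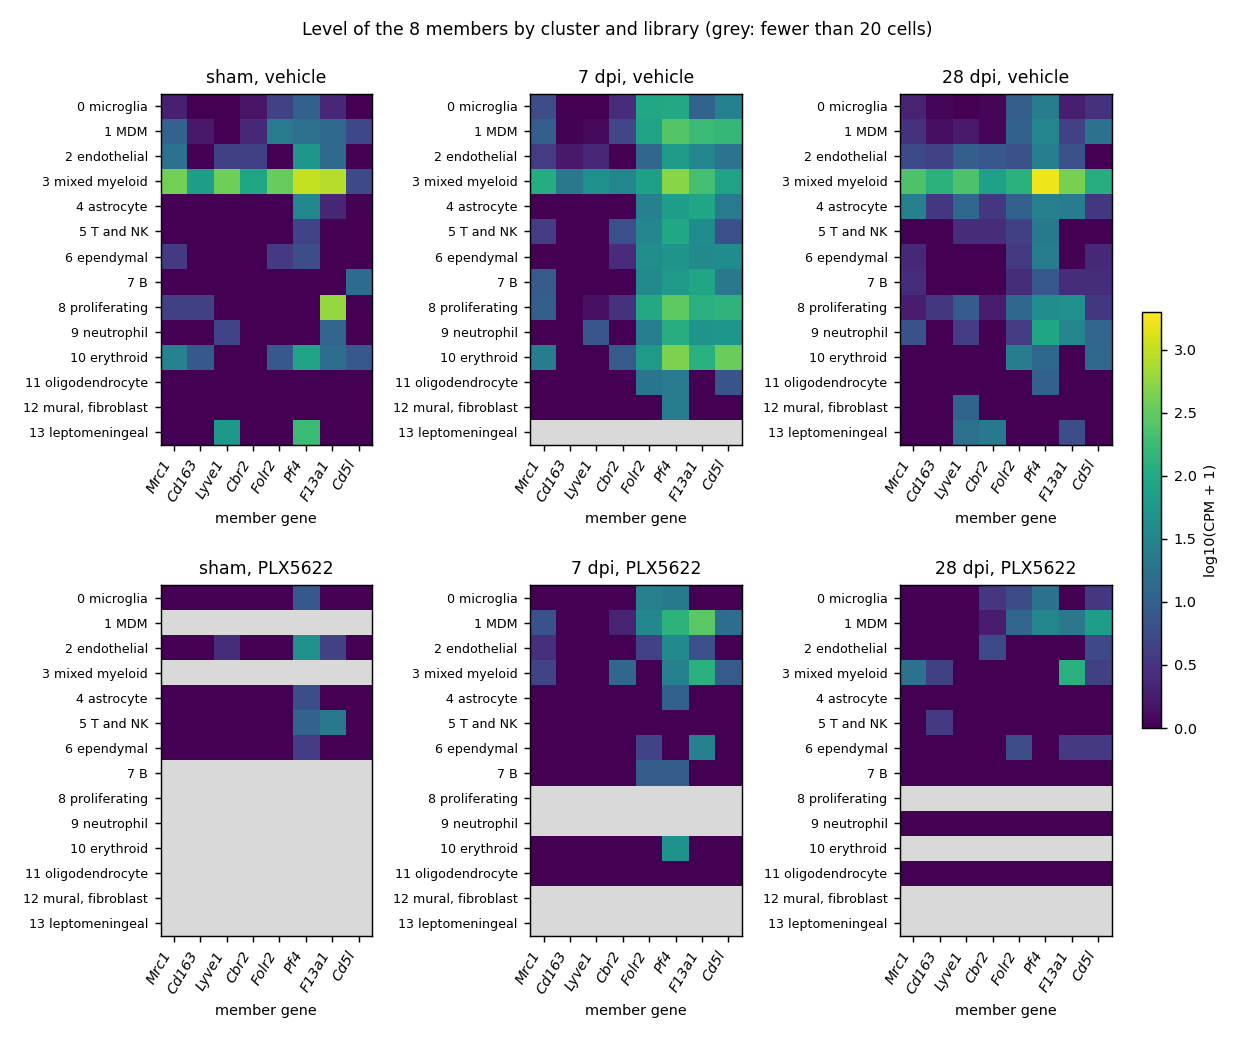
Level of the 8 genes in each cluster and library, as log10(CPM + 1) on a colour scale. Each panel is a library, rows are clusters, columns are genes, and grey marks clusters with under 20 cells in that library. The row of cluster 3 is bright for 7 of the 8 genes in vehicle libraries, and *Cd5l* is brightest at 7 dpi.

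In cluster 3 of vehicle-fed mice the receptor genes were highest in sham or at 28 dpi and lowest at 7 dpi. *Mrc1* was at 393 CPM (95% interval 337 to 455) in sham, 108 (94.5 to 123) at 7 dpi but 240 (203 to 281) by 28 dpi, from 179, 235 and 153 UMIs. The intervals of the 3 libraries did not overlap, and the log2 ratio of 7 dpi to sham was -1.86 (-2.15 to -1.58). *Lyve1* had the lowest 7 dpi level relative to sham. It stood at 373 CPM (319 to 434) in sham, 44.1 (35.7 to 53.8) at 7 dpi but 242 (205 to 283) by 28 dpi. *Lyve1* was carried by few cells, 13 of 75 in sham with up to 37 UMIs in a single cell, 21 of 602 at 7 dpi and 34 of 284 at 28 dpi.

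*Cd163* differed from the other receptors in its level at 28 dpi, which was the highest of the 3. It was at 70.2 CPM (48.0 to 99.1) in sham, 19.7 (14.3 to 26.6) at 7 dpi but 130 (104 to 161) by 28 dpi. The 28 dpi library was above the 7 dpi library by a log2 ratio of 2.72 (2.17 to 3.29) and above sham by 0.89 (0.29 to 1.53). *Folr2*, the folate receptor, was at 342 CPM in sham, 74.8 at 7 dpi and 127 at 28 dpi, so that its 28 dpi level remained below sham by a log2 ratio of -1.43 (-1.84 to -1.03). The reductase gene *Cbr2* had fewer UMIs and stood at 85.6, 31.7 and 75.3 CPM. Its 28 dpi and sham levels could not be told apart by counting error, with a log2 ratio of -0.19 (-0.83 to 0.46).

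The secreted proteins did not share a single course in cluster 3. *F13a1* followed *Folr2*, with 849 CPM (767 to 938) in sham, 205 (187 to 225) at 7 dpi but 414 (366 to 467) by 28 dpi. *Pf4* was at 1023 CPM in sham, 511 at 7 dpi and 1640 at 28 dpi. *Cd5l* went the other way from the rest: 2 UMIs (4.39 CPM) in sham against 77.6 CPM (66.3 to 90.2) at 7 dpi but 113 (88.3 to 142) by 28 dpi. Its log2 ratio of 7 dpi to sham was 4.14 (2.27 to 7.20), a wide interval because of the 2 sham UMIs, and after thinning, with 0 UMIs in sham, the bound was 0.45.

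Cells with platelet genes held part of the *Pf4* UMIs of cluster 3. The 6 platelet markers summed to 470 CPM in sham, 0.459 at 7 dpi and 149 at 28 dpi. In sham, 7 cells with UMIs of at least 3 platelet markers held 182 of the 466 *Pf4* UMIs, and without them *Pf4* was at 646 CPM and *F13a1* at 876. At 28 dpi, 4 such cells were found, and *Pf4* was at 1485 CPM without them. Leaving these cells out changed the *Pf4* log2 ratio of 7 dpi to sham from -1.0 (-1.16 to -0.84) to -0.34 and that of 28 dpi to sham from 0.68 to 1.20. The direction of the latter was not stable, since it was -0.69 after each cell was thinned to 1000 UMIs and -0.60 with every cell weighted alike.

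**Figure D2:**
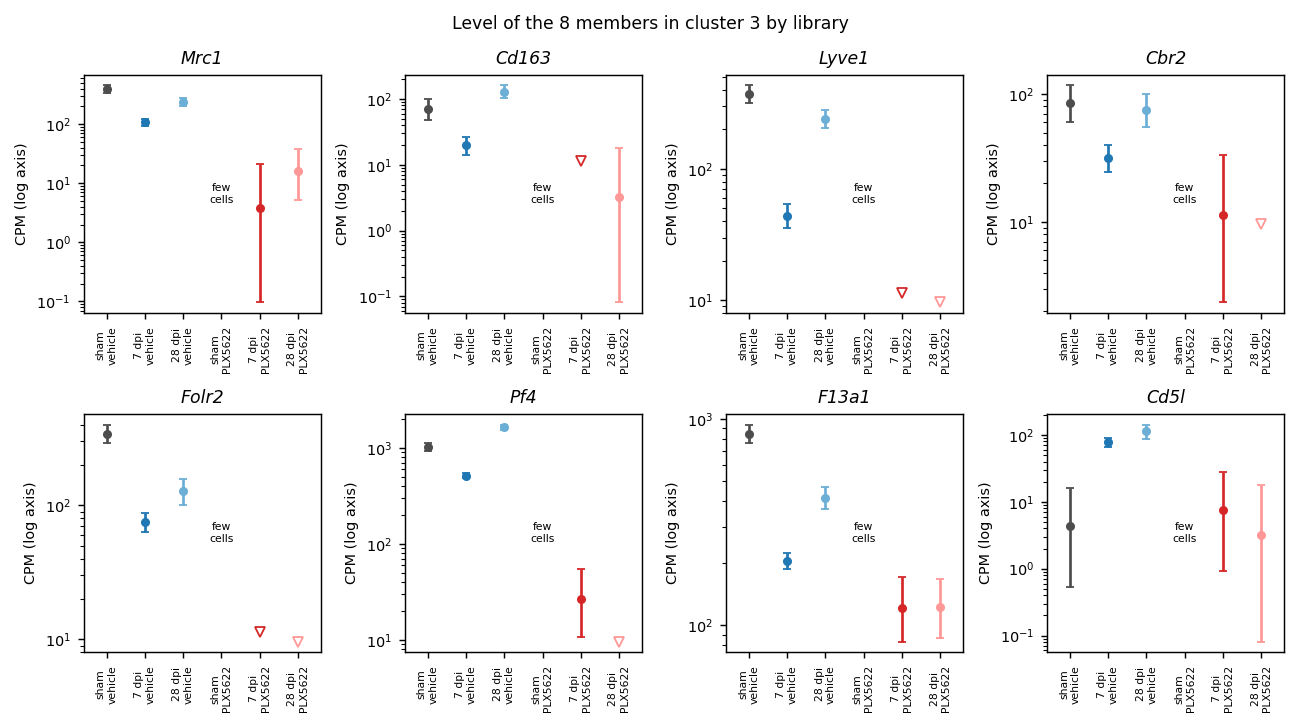
Level of each of the 8 genes in cluster 3 by library, in CPM on a log axis, with exact Poisson 95% intervals. Points are single libraries of vehicle-fed and PLX5622-fed mice, triangles mark the floor of 3 UMIs where a library had 0, and libraries with under 20 cells are marked as such. Vehicle points of *Mrc1*, *Lyve1* and *Cd163* dip at 7 dpi, and PLX5622 points lie below vehicle at both times for all 8.

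Across the 8 members, 7 were at least 2-fold lower in cluster 3 at 7 dpi than in sham, and *Cd5l* was higher. *Pf4* lay at the threshold itself. Of 3387 genes that reached 100 UMIs when the pair of libraries was summed, 5.52% were at least 2-fold lower. The median log2 ratio of the members was -1.85, against -0.16 over those genes. From 7 to 28 dpi, 6 of the 8 were at least 2-fold higher (all but *Folr2* and *Cd5l*), against 1.66% of 3497 genes, with a median of 1.20 for the members and -0.05 for all genes. The 7 dpi library enters both comparisons, so they are not independent. Stress genes of dissociated cells, such as *Fos* and *Dusp1*, moved too: 4 of 7 were at least 2-fold lower at 7 dpi than in sham, with a median of -1.57, and their part in these ratios was not tested. With DESeq2's size factors in place of CPM, the 7 dpi to sham log2 ratios of *Mrc1*, *Folr2* and *Pf4* were -1.53, -1.86 and -0.67. With cells weighted alike or thinned to 1000 UMIs, 5 members were still 2-fold lower and *Cd163* (-0.66 and -0.64) and *Cbr2* (-0.58 and -0.02) were not.

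Under PLX5622, cluster 3 held almost no UMIs of the receptors. At 7 dpi, 29 cells with a median of 9405 UMIs per cell held 1 UMI of *Mrc1* and 0 of *Cd163*, *Lyve1* and *Folr2*. At 28 dpi, 63 cells with a median of 4764 UMIs held 5 UMIs of *Mrc1*, 1 of *Cd163* and 0 of *Lyve1* and *Folr2*. Vehicle cells of this cluster were shallower, with medians of 2990 and 1830 UMIs, and whether depth bears on these differences was not tested.

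In log2 ratios of PLX5622 to vehicle, *Mrc1* was at -4.83 (-10.14 to -2.33) at 7 dpi, from the 1 UMI, and at -3.90 (-5.55 to -2.65) at 28 dpi. *Lyve1* was at least 3.86-fold lower at 7 dpi and at least 25.1-fold lower at 28 dpi. *Folr2* was at least 6.56-fold and at least 13.2-fold lower, and *Cd163* was at least 1.73-fold lower at 7 dpi. These folds are lower bounds set by the UMIs recovered, so their sizes at both times cannot be ranked. After thinning, the *Mrc1* ratio at 7 dpi was -0.13, near the level that the floor of 3 UMIs sets. The 1 UMI of *Cd163* at 28 dpi gave a log2 ratio of -5.34 with an interval from -10.66 to -2.82.

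The secreted proteins were split in cluster 3 under PLX5622. *Pf4* had 7 UMIs at 7 dpi (26.6 CPM, log2 ratio -4.26, interval -5.58 to -3.21) and 0 at 28 dpi, at least 170-fold below vehicle. The 7 dpi ratio of *Pf4* was -1.42 with cells weighted alike and -2.49 after thinning. *Cd5l* had 2 UMIs and 1 UMI at the 2 times. *F13a1* by contrast was at 122 CPM at both times, in 12 of 29 and 9 of 63 cells, with log2 ratios of -0.75 (-1.32 to -0.23) and -1.76 (-2.29 to -1.27). Without the cell with the most *F13a1* UMIs, the 28 dpi ratio was -2.31. The monocyte markers, summed over cluster 3, were at 2583 and 2638 CPM under PLX5622 against 1983 and 1838 under vehicle, and dendritic cell markers at 312 and 661 against 202 and 259. Their part in these ratios was not tested.

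By count, 6 of 8 members were at least 2-fold lower in cluster 3 under PLX5622 at 7 dpi, all but *Cd163*, whose bound is under 2-fold, and *F13a1*. Of 3098 genes with 100 UMIs, 4.39% were. At 28 dpi all 8 members were lower, against 13.1% of 1184 genes. The members were counted without that minimum, which 5 of them reached at 7 dpi and 4 at 28 dpi. With a minimum of 50 UMIs the shares of all genes were 7.72% and 13.7%. With genes at 0 set to their bound, the median log2 ratio of the members was -2.33 at 7 dpi and -4.28 at 28 dpi, and that of all genes was 0.02 and -0.04. Of the 7 stress genes, 2 of 6 with a ratio were lower at 7 dpi and 6 of 7 at 28 dpi, with medians of 0.33 and -1.71. In PLX5622-fed sham mice the 14 cells of cluster 3 held 76 *Pf4* UMIs, all in 2 cells with platelet markers, 56 *F13a1* UMIs in 7 cells, 2 of *Cbr2* and 1 of *Lyve1*. The count table lists *Mrc1* at 0 in that library, where the unfiltered matrix holds 3 UMIs, 2 of them in a cell of cluster 3. Genes found in fewer than 3 kept cells of a library are at 0 in the table. For the members in cluster 3 at 7 and 28 dpi under PLX5622, the matrices are at 0 wherever the table is.

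Several members were often found in the same cell of cluster 3. Of the vehicle cells, 22 of 75 in sham (29.3%), 78 of 602 at 7 dpi (12.96%) and 61 of 284 at 28 dpi (21.5%) held a UMI of at least 3 of the 8. With each cell thinned to 1000 UMIs and shallower cells dropped, the counts were 14 of 66 (21.2%), 38 of 581 (6.54%) and 41 of 245 (16.7%). Under PLX5622 there were 0 of 14, 0 of 29 and 0 of 63 cells at full depth, and the exact upper 95% limits at 7 and 28 dpi are 11.9% and 5.69%. At least 2 of *Mrc1*, *Cd163*, *Lyve1* and *Cbr2* were in 20, 34 and 48 vehicle cells and in 0 cells of the 3 PLX5622 libraries. *Cd5l* lay with *Pf4* and seldom with *Mrc1* or *Cd163*. At 28 dpi under vehicle all 28 *Cd5l* cells held *Pf4*, and 0 of 65 *Mrc1* cells held *Cd5l*. At 7 dpi 43 of 54 *Cd5l* cells held *Pf4*, 5 held *Mrc1* and 0 held *Cd163*, while 86 and 22 of all 602 cells held *Mrc1* and *Cd163*. Of these 54 cells, 24 were among the 78 with at least 3 members. The receptor *Folr2* differed: 14 of those 54 cells held it. At 7 dpi 21.2% of *Folr2* cells held *Cd5l* against 7.46% of the rest, and at 28 dpi 10.3% against 9.80%.

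**Figure D3:**
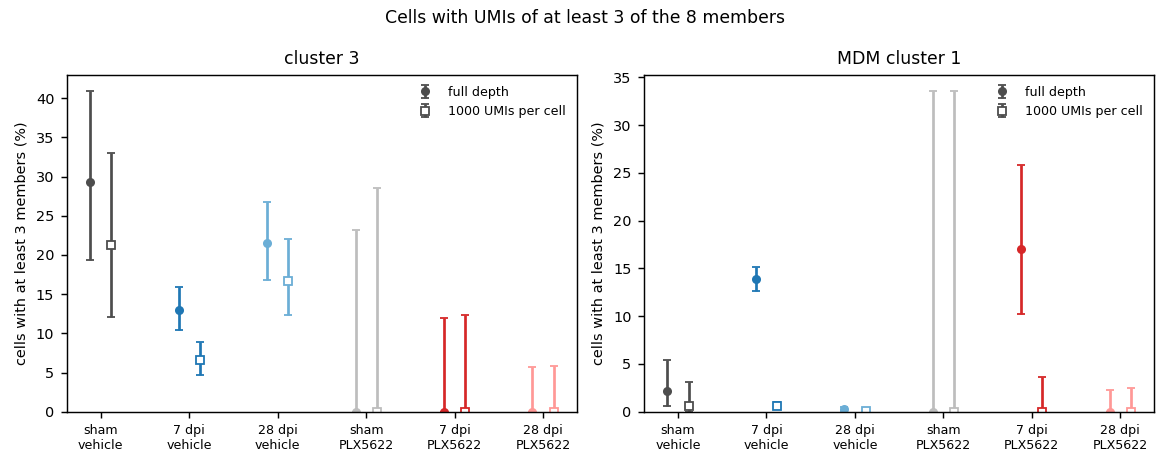
Percent of cells with a UMI of at least 3 of the 8 genes in cluster 3 and in MDMs by library, with exact Clopper-Pearson 95% intervals. Filled circles are at full depth, and open squares are after thinning each cell to 1000 UMIs. After thinning, cluster 3 cells of vehicle-fed mice stand at 21.2%, 6.54% and 16.7%. No cell of the PLX5622 libraries reached 3 members in cluster 3 at either depth.

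These cells carried most UMIs of the receptors in cluster 3. In sham, the 22 cells held 100% of *Lyve1*, *Cbr2* and *Folr2* UMIs, 96.9% of *Cd163*, 82.1% of *Mrc1*, 59.4% of *F13a1* and 56.2% of *Pf4*. At 7 dpi the 78 cells held 100% of *Lyve1*, 88.4% of *Cd163* and *Cbr2*, 84.0% of *Folr2*, 73.2% of *Mrc1* and between 49.9% and 54.6% of *F13a1*, *Cd5l* and *Pf4*. At 28 dpi the 61 cells held 98.7% of *Lyve1*, 98.8% of *Folr2*, 97.6% of *Cd163*, 93.8% of *Cbr2*, 79.7% of *Mrc1* and 66.7% of *F13a1*, but 37.3% of *Pf4* and 47.2% of *Cd5l*. Since the cells were chosen by these genes, the shares describe how far the genes lie together. On genes the choice did not use, some marker sums differed as well. Platelet markers were at 0 in all 3 vehicle libraries against 719, 0.547 and 192 CPM in the rest of the cluster. Dendritic cell markers were at 0, 8.54 and 0 CPM against 400, 239 and 333. Other sums had no single direction: microglia markers were at 323, 270 and 331 CPM against 403, 230 and 373. MDM markers were at 1045, 9020 and 2446 CPM against 1954, 5848 and 3356. Monocyte markers were at 994, 567 and 310 CPM against 5652, 2255 and 2275. The wider list of border macrophage genes described below had a median of 40.5, 60.5 and 61.8 UMIs per 1000 in these cells against 3.46, 12.0 and 11.2. That sum is not particular to these cells, since MDMs with fewer than 3 members had medians of 45.3, 99.9 and 109. *Apoe* had by far the most UMIs of the list in MDMs, and its part in these sums was not tested.

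A division by the 4 genes *Mrc1*, *Cd163*, *Lyve1* and *Cbr2* alone gives the levels of the other 4 in cells with and without them. *Folr2* was at 701, 280 and 471 CPM in cells of cluster 3 with a UMI of any of the 4, and at 0, 20.9 and 8.44 CPM in cells with none. *F13a1* was at 1065, 437 and 1094 CPM with and 643, 144 and 179 without. *Pf4* was at 1268, 962 and 2023 with and 789, 392 and 1508 without. *Cd5l* at 7 dpi was at 88.3 and 74.7 CPM and so was found in both kinds of cell. Cells with platelet markers were not set apart in this division. In sham, 7 such cells held 182 *Pf4* UMIs of the cluster, and the cells with none of the 4 genes held 184. The sham *Pf4* level of cells with none is therefore not read as shared expression. At 28 dpi, 4 such cells held 105 of 1046 *Pf4* UMIs. The monocyte gene *Ly6c2* was the reverse, with 0, 92.7 and 48.9 CPM in cells with any of the 4 and 1089, 306 and 449 in cells with none. The monocyte marker *Ccr2* differed less, at 1011, 499 and 220 CPM with and 1299, 612 and 443 without, so monocyte transcripts were found in both kinds of cell. The dendritic cell marker *Cd209a* was at 198, 113 and 24.4 CPM with and 150, 121 and 177 without. Cells with more UMIs hold a UMI of any gene more often, and the part of depth in this division was not tested.

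In MDMs the members were low in sham and 4 of them were high at 7 dpi. *Pf4* was at 15.5 CPM (9.72 to 23.5) in sham, 261 (254 to 268) at 7 dpi but 31.3 (28.4 to 34.4) by 28 dpi in vehicle-fed mice. *Cd5l* was at 4.23 CPM (1.55 to 9.21), 158 (153 to 164) and 15.9 (13.9 to 18.2). *F13a1* was at 12.7 CPM (7.52 to 20.1), 175 (169 to 181) and 3.39 (2.49 to 4.51), and so its 28 dpi level was below that of sham. *Folr2* was at 21.2 CPM (14.3 to 30.2), 78.7 (74.9 to 82.7) and 9.45 (7.90 to 11.2). These 4 were thus highest in the 7 dpi library in MDMs, in contrast with cluster 3, where *Folr2*, *Pf4* and *F13a1* were lowest at 7 dpi.

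The scavenger and hyaluronan receptors stayed near 0 in MDMs. *Cd163* had 1, 1 and 5 UMIs and *Lyve1* 0, 4 and 10 UMIs in 185, 3023 and 3313 vehicle cells. *Mrc1* was at 9.87 CPM in sham, from 14 UMIs in 2 cells, 8.80 at 7 dpi and 1.95 at 28 dpi. Its 7 dpi to sham log2 ratio was -0.17 (-0.95 to 0.74), 0.997 without the single cell with the most UMIs in each library, -1.98 with every cell weighted alike and -2.52 after thinning to 1000 UMIs, so no direction can be given. *Cbr2* was at 1.41, 3.82 and 0.144 CPM, from 2, 76 and 2 UMIs.

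**Figure D4:**
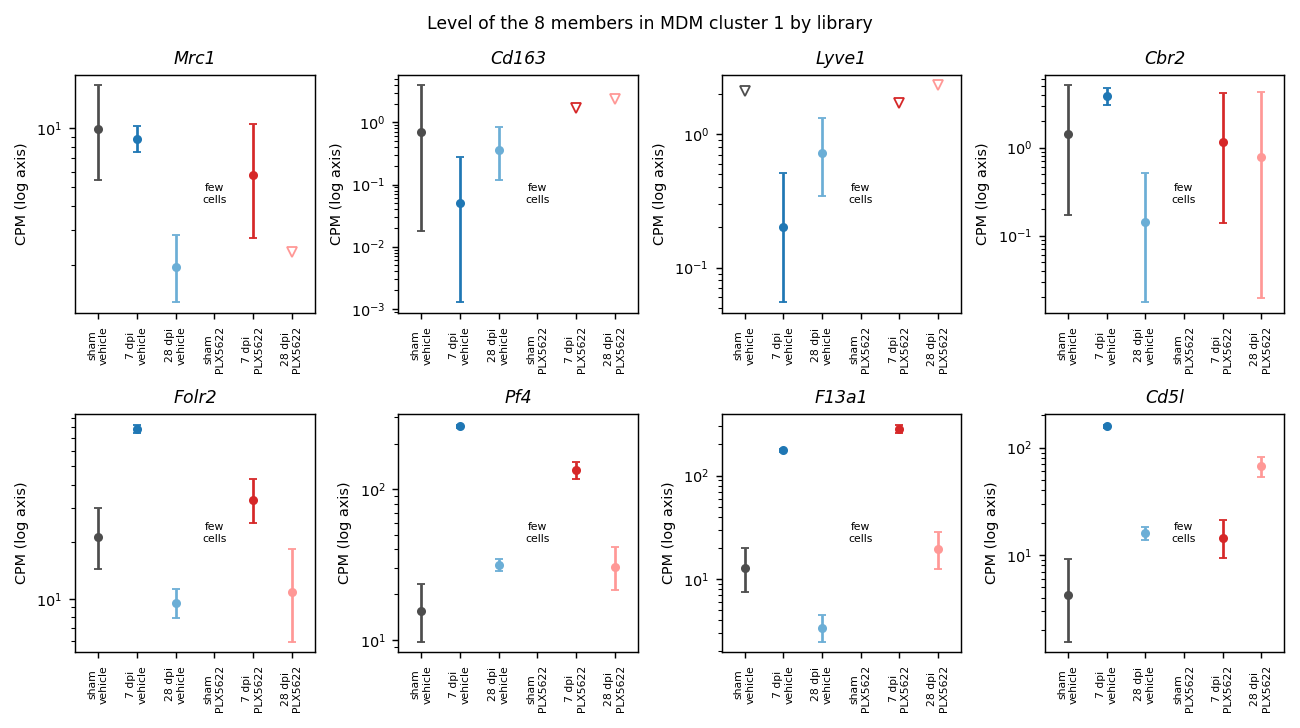
Level of each of the 8 genes in MDMs by library, in CPM on a log axis, with exact Poisson 95% intervals. Points are single libraries of vehicle-fed and PLX5622-fed mice, and triangles mark the floor of 3 UMIs where a library had 0. Vehicle points of *Pf4*, *F13a1*, *Cd5l* and *Folr2* peak at 7 dpi.

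At 7 dpi against sham, 5 of the 6 members with a ratio in MDMs (above the floor in either library) were at least 2-fold higher (all but *Mrc1*), against 4.09% of 8303 genes, with a median log2 ratio of 2.84 for the members and -0.25 for all genes. Stress genes went the other way, with 6 of 7 at least 2-fold lower and a median of -1.80. *Cd5l* was at 5.22 (4.10 to 6.67), *Pf4* at 4.07 (3.47 to 4.75), *F13a1* at 3.79 (3.12 to 4.54) and *Folr2* at 1.90 (1.38 to 2.47). The interval of *Cbr2*, at 1.44 (-0.46 to 4.51), included 0. After thinning, *Cd5l* was at 2.90 and *Folr2* at 0.80, below 2-fold. From 7 to 28 dpi, 6 of 8 were at least 2-fold lower, against 3.6% of 9140 genes, with a median of -3.06 for the members and 0.01 for all genes. *F13a1* went down most, by a log2 ratio of -5.69 (-6.14 to -5.28), *Cd5l* was at -3.31, and *Pf4* and *Folr2* were both at -3.06. *Cd163* at 2.84 (-0.32 to 8.41) and *Lyve1* at 1.84 (0.05 to 3.97) rest on the few UMIs given above, and *Cd163* was at -0.59 with cells weighted alike.

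PLX5622 went with different ratios for different members in MDMs. At 7 dpi *Cd5l* was at 14.3 CPM (9.26 to 21.1) under PLX5622, a log2 ratio to vehicle of -3.47 (-4.10 to -2.90). *Folr2* was at 33.2 CPM and *Pf4* at 134 CPM, with log2 ratios of -1.25 (-1.65 to -0.87) and -0.96 (-1.16 to -0.77). *F13a1* was at 284 CPM, above vehicle by 0.70 (0.56 to 0.83). *Mrc1* and *Cbr2*, with 10 and 2 UMIs, had intervals that included 0. The 100 MDMs of this library were deeper than the vehicle MDMs, with a median of 15945 UMIs against 5777, and their monocyte markers summed to 328 CPM against 100. Whether these differences bear on the members was not tested. With every cell weighted alike the *Cd5l* ratio was -2.12, and after thinning to 1000 UMIs it was -1.66 and that of *Folr2* -2.98.

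By count, 3 of 6 members were at least 2-fold lower in MDMs under PLX5622 at 7 dpi (*Cd5l*, *Folr2* and *Cbr2*), against 2.17% of 8295 genes, with a median log2 ratio of -1.10 for the members and 0.00356 for all genes. *Pf4* fell just short of that fold. In single cells, the highest *Cd5l* count was 104 UMIs under vehicle and 9 under PLX5622, and *Cd5l* was in 488 of 3023 and 12 of 100 cells.

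At 28 dpi the picture was another one. *Cd5l* was at 66.8 CPM (53.5 to 82.5) under PLX5622 against 15.9 under vehicle, a log2 ratio of 2.07 (1.69 to 2.43). Of the 86 UMIs, 42 were in a single cell and all were in 12 of 161 cells, and without the top cell of each library the ratio was 1.28. *F13a1* was at 19.4 CPM against 3.39, a log2 ratio of 2.52 (1.76 to 3.25). *Folr2* and *Pf4* were at 0.20 (-0.71 to 1.00) and -0.05 (-0.56 to 0.43), so no difference was detectable at this depth. *Mrc1*, *Cd163* and *Lyve1* had 0 UMIs. In all, 2 of 4 members with a ratio were at least 2-fold higher, against 2.33% of 7635 genes. The median was 1.14 for the members and 0.01 for all genes. Of the 4, 3 reached the minimum of 100 UMIs set for all genes. Of the 7 stress genes 3 were lower, with a median of -0.97.

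**Figure D5:**
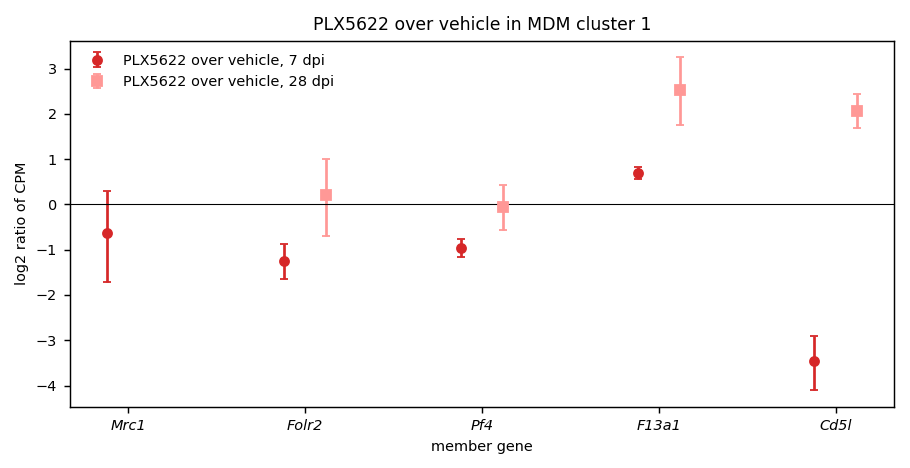
Log2 ratio of PLX5622 to vehicle in MDMs at 7 and 28 dpi for the genes with enough UMIs, with exact conditional binomial 95% intervals; the line at 0 marks equal levels. *F13a1* is above 0 at both times, and *Cd5l* lies at -3.47 at 7 dpi and 2.07 at 28 dpi.

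In microglia of vehicle-fed mice *Folr2*, *Pf4* and *Cd5l* were higher at 7 dpi too. *Folr2* was at 3.34 CPM in sham, 93.3 (86.2 to 101) at 7 dpi and 9.08 at 28 dpi, with a log2 ratio of 7 dpi to sham of 4.80 (3.75 to 6.12). *Pf4* was at 9.54, 98.2 and 23.8 CPM, a log2 ratio of 3.36 (2.72 to 4.08) that was 4.51 without cells with platelet genes. *Cd5l* had 0 UMIs in sham, 26.8 CPM at 7 dpi, at least 18.7-fold higher, and 2.02 at 28 dpi. *Lyve1* was at 0 in microglia of all libraries, and *Cd163* had 1 UMI in all. *F13a1*, *Mrc1* and *Cbr2* reached 10.1, 5.04 and 1.63 CPM at 7 dpi. All 6 members with a ratio were at least 2-fold higher at 7 dpi than in sham, against 4.02% of 6623 genes. The median log2 ratio was 3.09 for the members and -0.54 for all genes. Of the 6, 3 reached the minimum of 100 UMIs set for all genes, and *F13a1*, *Mrc1* and *Cbr2* are read as background below. The interval of *Cbr2*, at 1.77 (-1.01 to 7.20), included 0.

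T and B cells, which should lack these genes, give the background from RNA free in the suspension. At 7 dpi under vehicle, 9.62% of T and B cells held a UMI of *Pf4*, 6.41% of *Folr2*, 6.41% of *F13a1*, 2.62% of *Cd5l* and 1.46% of *Mrc1*, at a median of 1794 UMIs per cell. The shares of MDMs, at a median of 5777 UMIs, were 45.3%, 28.1%, 32.1%, 16.1% and 4.10%. After thinning to 1000 UMIs they were 2.25%, 1.50%, 1.87%, 0.375% and 0.375% in lymphocytes and 15.0%, 7.25%, 10.9%, 5.95% and 0.798% in MDMs. MDMs thus lay several-fold above lymphocytes for each gene apart from *Mrc1*, whose gap was the least. Microglia, at a median of 2902.5 UMIs, held *F13a1* in 2.46% and *Mrc1* in 1.11% of cells (0.907% and 0.554% after thinning), and *Cbr2* in 0.511% against 0.583% in lymphocytes. These 3 genes are read as background in microglia and not as expression. *Folr2*, *Pf4* and *Cd5l* stood above lymphocytes in microglia after thinning, at 7.41%, 7.66% and 1.97%.

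MDMs rarely held several members once depth was set equal. At full depth, 419 of 3023 MDMs (13.9%) at 7 dpi under vehicle held at least 3 of the 8, and 17 of 100 did under PLX5622. After thinning to 1000 UMIs these were 19 of 3008 (0.632%) and 0 of 99, against 6.54% in cluster 3 of the same vehicle library. At least 2 of *Mrc1*, *Cd163*, *Lyve1* and *Cbr2* were in 11 of the 3023 cells. The 419 cells held 61.3% of *Cd5l*, 58.3% of *Mrc1*, 48.0% of *Folr2*, 43.2% of *Pf4* and 41.1% of *F13a1* UMIs of MDMs at 7 dpi.

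Outside microglia, MDMs and cluster 3, the members were found in few cells of vehicle-fed sham mice but in more at 7 dpi. In that sham library 814 cells held none and 39 held 1. At 7 dpi under vehicle 1211 cells held none, while 251, 119 and 60 held 1, 2 and 3, and the rest held 4 or 5. After thinning, 1187 held none and 158, 30 and 1 held 1, 2 and 3. T and B cells are among these cells, and the part of background RNA in the counts was not tested. *Lyve1* had 19 UMIs in 6 of 27 leptomeningeal cells (56.2 CPM) of the vehicle-fed sham library, and under PLX5622 in sham 13 UMIs in that cluster and 21 in 4 of 19 cells of the pericyte and fibroblast cluster. *F13a1* was at 591 CPM in the proliferating cluster of the vehicle-fed sham library, from 185 UMIs in 8 of 29 cells. Over all libraries the proliferating cluster held 8.74% of *F13a1* and 7.57% of *Cd5l* UMIs. *Folr2* was at 96.6 CPM there at 7 dpi under vehicle. *Pf4* and *Cd5l* were at 438 and 346 CPM in the erythroid cluster at 7 dpi under vehicle, where 74 of 90 *Cd5l* UMIs were in a single cell. In the leptomeningeal cluster of the same sham library 52 of 60 *Pf4* UMIs were in 1 cell with platelet markers.

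Summed over all cells of the sham libraries, *Folr2* had 27.1 CPM under vehicle and 0 UMIs under PLX5622, and *Mrc1* had 28.7 CPM under vehicle and the 3 unfiltered UMIs given above under PLX5622. In such sums fewer cells of a type and less RNA per cell cannot be told apart. *Pf4* was at 87.1, 227 and 65.5 CPM in the sham, 7 dpi and 28 dpi libraries under vehicle and at 53.0, 65.2 and 13.3 under PLX5622. Of the 138 *Pf4* UMIs in the PLX5622-fed sham library, 128 were in 8 cells with platelet markers. *F13a1* was at 126 CPM at 7 dpi under either diet. *Cd5l* was at 113 CPM at 7 dpi under vehicle and 6.20 under PLX5622, and at 11.5 and 24.3 at 28 dpi.

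A wider list of 28 genes used for border and perivascular macrophages, 27 of them in the table, was counted in the same way. In cluster 3 at 7 dpi against sham, 4 of 24 were at least 2-fold higher and 8 lower, against 3.48% and 5.52% of all genes, with a median log2 ratio of -0.56 against -0.16. Under PLX5622, 14 of 24 were at least 2-fold lower at 7 dpi and 17 of 25 at 28 dpi, with medians of -1.12 and -2.15 (the members were at -2.33 and -4.28), against 4.39% and 13.1% of all genes. *Tgfbi*, which encodes a matrix protein induced by TGF-beta, was the gene that was higher at 7 dpi, and *Clec10a* and *Cd209d*, both C-type lectins, at 28 dpi, against 2.13% and 2.96% of all genes.

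In MDMs the genes of that list with the most UMIs included the lipid carrier *Apoe* with 3690820, the transcription factor gene *Maf* with 5972, *Ms4a7* with 20526 and the scavenger receptor *Stab1* with 7120. At 7 dpi against sham under vehicle, 8 of 22 were at least 2-fold higher and 3 lower, against 4.09% and 11% of all genes. The ectoenzyme *Cd38* was at a log2 ratio of 3.11, *Stab1* at 2.46 and the lipid scavenger receptor *Cd36* at 2.28, while the chemokine *Ccl24* was at -3.07, the prostaglandin-degrading enzyme *Hpgd* at -2.55 and *Igfbp4* at -1.69. At 28 dpi against sham, 1 of 21 was higher and 5 lower, against 1.53% and 5.63% of all genes. The ratios ran from *Colec12*, a collectin, at 1.29, *Siglec1* at 0.82 and *Apoe* at 0.78 down to *Igfbp4* at -2.73 and *Ccl24* and *Fcna* both at -2.29, *Fcna* from 4 and 2 UMIs. Both comparisons share the sham library.

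Under PLX5622 in MDMs genes of the wider list lay on both sides of 0. At 7 dpi 3 of 21 were at least 2-fold higher and 4 lower, against 1.83% and 2.17% of all genes. The endothelin receptor *Ednrb* was at a log2 ratio of 1.78, *Tgfbi* at 1.32 and *Clec4n* at 1.31, and *Stab1* was at -1.34, *Ltc4s* at -1.26 and the ficolin *Fcna*, with 0 UMIs, at a bound of -1.51. *Igfbp4*, from 4 UMIs, was also lower. At 28 dpi 3 of 20 were higher and 1 lower, against 2.33% and 2.48% of all genes, with *Cd38* at 2.18, *Cd36* at 1.91, *Tgfbi* at 1.45, *Hpgd* at -1.12, *Clec4n* at -0.69 and *Fcgrt* at -0.55.

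Genes that act with the members, such as haptoglobin, haem oxygenase, folate carriers and the transglutaminase *Tgm2*, form a list of 16, with 15 in the table. In MDMs at 7 dpi against sham, 3 of 12 were at least 2-fold higher (*Hp*, *Tgm2* at 1.70 and *Nr1h3*, a nuclear receptor known to act on *Cd5l*, at 1.82) and 2 lower (the iron exporter *Slc40a1* at -1.18 and the folate carrier *Slc19a1*), against 4.09% and 11% of all genes. Under PLX5622 at 7 dpi, the haem oxygenase gene *Hmox1* was at 1.18 and *Hp*, which encodes the ligand of CD163 and is also 1 of the 6 monocyte markers, at 3.14, while the proton-coupled folate transporter *Slc46a1* was at -1.23, which makes 2 higher and 1 lower of 13, against 1.83% and 2.17%. At 28 dpi, *Hp*, *Tgm2* and *Nr1h3* were at 2.43, 1.79 and 1.34, 3 of 12 with a ratio, against 2.33%. In cluster 3 at 28 dpi under PLX5622, 1 of 10 was higher and 3 lower, against 2.96% and 13.1%, with *Hmox1* at -2.21 and the cholesterol exporter *Abca1* at -1.81.

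Likeness of pattern was measured as Pearson's r of log2(CPM + 10) over 66 pairs of cluster and library with at least 20 cells, among 12852 genes. The pairs share libraries, depth and clusters, and r is a description. *Cd163* was most like *Vsig4* (0.98), *Timd4* (0.96) and *Hal* (0.92). *Mrc1* was most like *Fcna* (0.90), *Cd163* (0.89) and *Timd4* (0.87), *Lyve1* like *Timd4* (0.89), *Vsig4* and *Cd163* (0.87), and *Cbr2* like *Timd4* (0.89), *Retnla* (0.88) and *Vsig4* (0.88). *Folr2* and *Pf4* were most like each other (0.81), and both had the acute-phase gene *Saa3* next (0.81 and 0.79), followed by *Msr1* (0.79) for *Folr2* and *Lyz1* (0.71) for *Pf4*. *F13a1* was most like *F10* (0.83), which encodes coagulation factor X, *Clec12a* (0.80) and *Pparg* (0.77), and *Cd5l* was most like *Gdf3* (0.83), *Msr1* (0.77) and *Folr2* (0.73). With a pseudocount of 10 the 4 genes found mostly in cluster 3 had *Timd4* among their 3 nearest genes, and with a pseudocount of 1 only *Cd163* and *Lyve1* did.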

How the data were processed

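Single-cell RNA-seq was analysed for 6 libraries, 1 per condition, each pooled from 3 to 4 mice after removal of myelin and dead cells, and prepared with 10x 3' chemistry. Cell Ranger was used by the authors to align reads and count UMIs, and Seurat to filter the cells and cluster them. The submitters' processing notes also list STAR 2.4.0 and HTSeq 0.6.1 and the build GRCm38, with no role. The deposited values are raw counts of UMIs: a matrix per library and a table of all kept cells with a cluster number for each. The table leaves out 254 of 21270 barcodes, which held no UMI of the members, and lists at 0 the genes found in fewer than 3 kept cells of a library (506 to 1181 genes per library). No column of the table was left unused. Bulk samples of the series (14) were not analysed here.

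UMIs of each gene were summed per cluster and library and divided by all UMIs of those cells. The members and gene lists were chosen with earlier results of these data known. By the rule for named genes, all members were named, the 3 genes most like each, and of the wider list the 5 with most UMIs in MDMs and the 3 highest and 3 lowest ratios per comparison in MDMs. Partner genes were named with their member, and any other gene after its values were seen. A gene that this rule names is not reported here. In 8 comparisons between libraries the background was every gene with at least 100 UMIs in both together. Members and listed genes were counted without this minimum. Levels come from counts at the 3' end of transcripts, so no length scaling was made. Doublets were left in. Motifs were searched in RefSeq promoters of GRCm38.p6. Alternative scalings were TMM (edgeR) and size factors (DESeq2). Other alternatives weighted cells alike, thinned each cell to 1000 UMIs, kept cells of 500 or more genes, kept Scrublet singlets, dropped ribosomal protein and mitochondrial genes from totals and, chosen after seeing the data, left out cells with platelet genes or the top cell. The steps were tested on simulated data. Python 3.11.15 was used with scanpy 1.11.5, pandas 2.3.3, scipy 1.17.1, matplotlib 3.10.9 and numpy 2.4.6. Scaling factors alone were taken from DESeq2 1.42.0 and edgeR 4.0.16 in R 4.3.3.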

Additional observations from a re-analysis of the deposited data

Results flagged for a closer look

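The ratio of PLX5622 to vehicle in MDMs was not the same at 7 and 28 dpi for 3 members. The log2 ratio at 28 dpi minus that at 7 dpi was 5.53 (4.86 to 6.21) for *Cd5l*, 1.82 (1.11 to 2.53) for *F13a1* and 1.45 (0.57 to 2.33) for *Folr2*. For *Pf4* the difference was 0.92 (0.41 to 1.43), below 2-fold. The intervals cover counting error alone, and with 1 library per condition the differences were not tested over animals. Of the *Cd5l* UMIs of MDMs under PLX5622 at 28 dpi, 42 of 86 were in a single cell.

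*Lyve1* had 4 UMIs in the unfiltered matrix of the 7 dpi PLX5622 library, in 2 cells of the leptomeningeal cluster, where the count table lists it at 0.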

How the results depend on the processing

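The 80 log2 ratios of members took 694 values under 9 alternatives, of which 611 stayed within their counting interval. In all 14 values of 7 ratios had the other sign. The only ratio past 2-fold and beyond counting error to change sign was the PLX5622 to vehicle ratio of *Folr2* in microglia at 7 dpi, which was -1.84 as reported and 0.0866 after thinning to 1000 UMIs. The other 13 were *Cbr2* and *Pf4* in cluster 3 at 28 dpi over sham, *Mrc1* at 7 dpi over sham and *Cd163* at 28 over 7 dpi in MDMs, and *Folr2* and *Pf4* in MDMs under PLX5622 at 28 dpi. Thinning moved 39 of 66 ratios and equal weighting of cells 24 of 70, DESeq2's factors 7, TMM 3, and removal of doublets called by Scrublet 0. Scrublet called 1 cell at 28 dpi under vehicle and so did not work there. After thinning, 3 members (not 5) were 2-fold higher in MDMs at 7 dpi than in sham, 3 (not 6) in microglia, and 1 (not 6) was lower in cluster 3 under PLX5622 at 7 dpi. The latter count cannot show whether the decrease holds. In the 28 thinned cells of that library *Mrc1*, *Cd163*, *Lyve1*, *Folr2*, *Pf4* and *Cd5l* had 0 UMIs. The floor of 3 UMIs then sets the ratio, and only for *Pf4* did it leave room for a 2-fold decrease. With cells weighted alike, 4 (not 8) were lower in cluster 3 under PLX5622 at 28 dpi, which were all the members with a value. *Lyve1*, *Cbr2*, *Folr2* and *Pf4* had 0 UMIs there, and this setting uses no floor, so they had no ratio. At 1.5-fold, 5 (not 3) were lower in MDMs under PLX5622 at 7 dpi. The share of cluster 3 cells with at least 3 members at 7 dpi, 6.54%, was 12.96% at full depth, 12.2% with at least 2 and 3.61% with at least 4 members. At 28 dpi, 16.7% became 22.3% at 2000 UMIs, 29.0% with at least 2 and 11.4% with at least 4. In MDMs at 7 dpi, 0.632% became 13.9% at full depth, 2.56% at 2000 UMIs, 6.68% with at least 2, 0.0332% with at least 4, and 0.364% with 2 of *Mrc1*, *Cd163*, *Lyve1* and *Cbr2*, a setting chosen after seeing the data. The percent of all genes past the fold ranged from 0.835 to 23.2 over other folds and UMI minimums. No paired analysis was possible because each condition has 1 library and the labels share no replicate number. Few cells limit most statements on PLX5622-fed mice: 29 and 63 cells of cluster 3 and 100 and 161 MDMs.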
